A study of Homo sapiens with 12 samples.

Results

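In T47D cells, an established estrogen receptor-positive human breast cancer line, 50 genes were transcribed more after 1 h of estradiol although hormone starvation had not lowered them past a set line. They were chosen by the measured values themselves. Each had a mean raw count of at least 50 over the 12 libraries, a log2 ratio of estradiol over starved vehicle of at least 0.8, and a log2 ratio of starved vehicle over complete-medium vehicle above -0.3. The ratios were taken on CPM (counts per 1000000 counts of the library), averaged over the 2 libraries of a group, with 0.5 added. Of 60605 gene IDs in the table, 14651 reached the mean count, and 245 of these reached the estradiol threshold. The 50 genes are the part of those 245 that starvation did not lower past the threshold, and the other 195 serve as the comparison.

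PRO-seq, which sequences the nascent RNA of engaged RNA polymerases and so reads transcription at the moment of harvest, was measured in 6 groups of 2 libraries. In 4 groups, cells kept in complete medium with serum for 3 days received vehicle (0.1% DMSO by volume), 100 nM fulvestrant, 100 nM raloxifene or 100 nM tamoxifen for 1 h. In the other 2 groups, cells starved of hormones received vehicle (0.1% DMSO) or 1 nM estradiol for 1 h. These cells are also recorded as 3 days in their medium. Starvation is named by the group labels, while the protocol text covers complete medium only, and the solvent that carried estradiol is not stated in the labels. The libraries of each group carry the numbers 3 and 4. Separate cultures are not stated for them, and p-values therefore rest on a library-to-library spread that may be technical.

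Estradiol binds the estrogen receptor, a nuclear receptor that then recruits coactivators at DNA elements, many of them far from the genes they act on, or joins other factors such as the AP-1 proteins there. Fulvestrant is a full antagonist that also destabilises the receptor, whereas raloxifene and tamoxifen are selective modulators whose action differs between tissues. In most textbook descriptions an estrogen-induced gene is high in complete medium, falls on hormone withdrawal and returns with estradiol. The 50 genes were selected for a fall no larger than the -0.3 line allows, so some of them were modestly lower in starved cells.

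Depth lay between 3682311 and 7856803 counts per library, raloxifene libraries 4 and 3 being the extremes. Luminal epithelial markers summed to between 3831 and 4701 CPM in every library. Basal and mesenchymal markers summed to between 32.5 and 47.9 CPM, and stromal, endothelial and blood markers to between 41.0 and 56.8 CPM, with 1 of the 9 at 0 in all libraries. Because CPM are relative to the library total, a change in total transcription cannot be told apart from its absence.

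In the 3 groups used for the choice, the members stood a median of 1.94-fold higher with estradiol than with starved vehicle (range 1.74 to 3.69), a log2 ratio of 0.95 (0.80 to 1.89). Their median log2 ratio of starved over complete vehicle was -0.05 (-0.29 to 2.63). These values chose the genes and are given as a description, with no test, and the starved vehicle libraries enter both ratios. Among the 195 starvation-lowered genes, the median log2 estradiol ratio was 1.28 (0.80 to 3.15) and the median log2 starvation ratio was -0.95 (-3.94 to -0.30). The estradiol-treated level ended at different points relative to complete medium: the median log2 ratio of estradiol-treated cells over complete vehicle was 0.96 (0.54 to 3.47) for the members and 0.36 (-1.82 to 1.57) for the starvation-lowered genes. In all 50 members both estradiol libraries lay above both starved vehicle libraries and above all 8 complete-medium libraries, as they did in 21.6% and 17.0% of genes with the mean count; the rule used these libraries, so nothing is read from this.

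**Figure D1:**
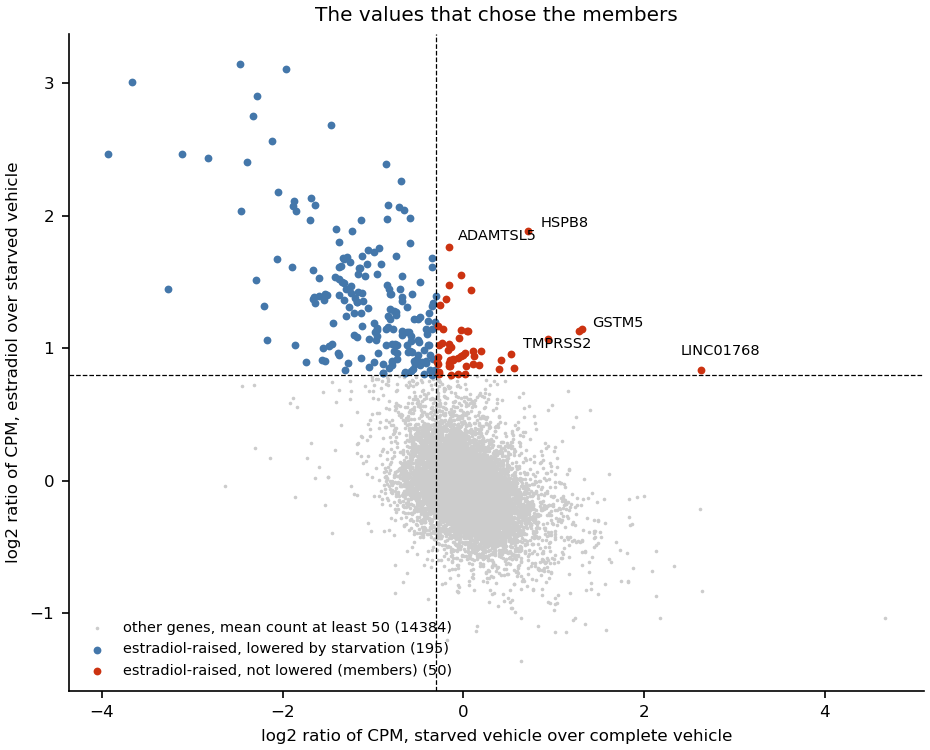
Each point is 1 gene with a mean count of at least 50, by its log2 ratio of CPM (0.5 added) of starved over complete vehicle (x axis) and of estradiol over starved vehicle (y axis); dashed lines mark the thresholds 0.8 and -0.3. The 50 members (red) have a median of 0.95 on the y axis and -0.05 on the x axis, and the 195 starvation-lowered genes (blue) 1.28 and -0.95.

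Summed over the 50 genes, the level was 4357 and 4296 CPM in the complete vehicle libraries and 4301 and 4238 CPM in the starved vehicle libraries. With estradiol it was 8667 and 8434 CPM. Of the 50, 41 had a starvation ratio between -0.3 and 0.3 on the log2 scale, and 9 were over 0.3. Both starved vehicle libraries lay above both complete vehicle libraries in 12 members and below both in 18 (24.0% and 36.0%), as they did in 35.1% and 31.6% of genes with the mean count. The rule used this contrast too, so these shares are a description.

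The choice depends on where the lines were drawn. Just inside the estradiol threshold were CYLD (log2 ratio 0.80), SNAPC3 (0.80) and MANEAL (0.81), and just outside it were TMEM184B (0.79), PNMA1 (0.78) and SLC35F6 (0.78). Just inside the starvation threshold were MYOF (log2 ratio -0.29), CBX3P4 (-0.28) and ENSG00000261606 (-0.28), and just outside it were FLOT1 (-0.30), EEIG1 (-0.31) and HEG1 (-0.31). By mean count, MANEAL (50.5), ENSG00000261606 (54.1) and ENSG00000234859 (78.2) were nearest inside, and PSG9 (49.6), PPM1J (48.7) and ENSG00000287100 (46.9) nearest outside. With an estradiol threshold of 1.0, 20 of the 50 remained members. When 1 library of the 3 groups was left out, between 40 (without starved vehicle library 4) and 49 (without estradiol library 4) of the 50 did.

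By RefSeq class, 36 members were protein-coding, 3 were long non-coding RNA genes, 2 were pseudogenes, 2 were transcribed pseudogenes and 7 had no RefSeq entry under their name. Protein-coding genes made up 83.7% of the 43 placed members, 89.6% of 163 placed starvation-lowered genes and 87.9% of 12909 placed genes with the mean count. The median span of a placed member was 43.9 kb, beside 48.3 kb and 33.4 kb in those groups. Positions below are those of assembly GRCh38.p14.

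Promoter windows from RefSeq, 250 bases before to 50 bases after a start, were found for 32 members, which have 50 windows in all because some have several starts. The full palindromic estrogen response element, GGTCA and TGACC with 3 bases of any kind between them, was in 0 of the 50 windows, 0 of 203 windows of starvation-lowered genes and 0.0570% of all 35116 windows, so this near-start window seldom holds it in any gene. A single arm of that element, GGTCA, read on both strands (TGACC) and so counted inside a full element too, was in 12 member windows (24.0%), in 38.4% of windows of starvation-lowered genes, 34.4% of windows of genes with the mean count and 37.4% of all windows. The AP-1 site TGACTCA, with its reverse TGAGTCA, was in 4 member windows (8.0%, of DHRS3, FOSL2, GUCD1 and MAN1C1), in 4.43% of windows of starvation-lowered genes, 3.29% of those of genes with the mean count and 4.95% of all. Median G and C content was 66.0% in member windows, 66.7% in those of starvation-lowered genes, 64.7% in those of genes with the mean count and 58.7% in all. A match is a run of letters and says nothing on whether a factor binds there.

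To show what such matches look like, stretches before the start of 4 members follow, from RefSeq on GRCh38.p14, each 5′ to 3′ on the gene's own strand, which is the minus strand for all 4. MREG and MYOF are shown because both fell with fulvestrant (below), ADAMTSL5 because its estradiol ratio ranked next to the highest, and GUCD1 because it carries an AP-1 match. Capitals mark the single arm TGACC in the first 3 and the AP-1 site in the last. The stretches lie at chr2:216034170-216034224 (MREG), chr10:93482507-93482561 (MYOF), chr19:1513083-1513137 (ADAMTSL5) and chr22:24555981-24556037 (GUCD1).
MREG: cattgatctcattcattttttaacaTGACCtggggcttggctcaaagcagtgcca
MYOF: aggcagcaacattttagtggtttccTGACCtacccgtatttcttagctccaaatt
ADAMTSL5: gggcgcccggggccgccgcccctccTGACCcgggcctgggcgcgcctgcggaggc
GUCD1: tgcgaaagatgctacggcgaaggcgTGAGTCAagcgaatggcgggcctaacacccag

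The highest estradiol ratio belonged to HSPB8, a small heat shock protein gene at chr12:119178931-119194746 (plus strand). HSPB8 measured 34.7 and 30.9 CPM in complete vehicle, 51.9 and 56.5 CPM in starved vehicle and 201 and 202 CPM with estradiol. It thus stood higher in both starved libraries than in any complete-medium library, and higher again with estradiol (log2 ratio 1.89 over starved and 2.60 over complete vehicle). ADAMTSL5, which encodes a secreted ADAMTS-like protein, was at 22.2 and 22.3 CPM in complete vehicle and 18.8 and 21.1 CPM in starved vehicle. It reached 71.4 and 66.9 CPM with estradiol (log2 ratio 1.77). For ADAMTSL5 both starved vehicle libraries lay slightly below the complete vehicle libraries, and so did all drug libraries. Its log2 fold change was -0.31 with fulvestrant, -0.36 with raloxifene and -0.37 with tamoxifen. None of these was called (edgeR adjusted p = 0.60, 0.40 and 0.65).

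Of the list of 28 tested ion channel and transporter genes, 4 were members, and 3 others were starvation-lowered. Members are 0.341% of the genes with the mean count. The list was drawn up with earlier results of these data known, so nothing is read from its number of members. SLC22A5, the carnitine transporter, was at 41.2 and 39.5 CPM in starved vehicle and at 109 and 118 CPM with estradiol (log2 ratio 1.48). KCNK6, a potassium leak channel, was at 29.8 and 28.3 CPM and at 78.8 and 68.6 CPM (log2 ratio 1.33). SLC7A5, which carries large neutral amino acids, was among the more abundant members, at 267 and 260 CPM and at 523 and 450 CPM (log2 ratio 0.88). In all 3 the estradiol libraries lay above the starved ones, as they did in all 50 members, which were chosen by this contrast. SLC25A24, a mitochondrial ATP-Mg carrier, had a log2 ratio of 0.81.

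Further members among the 15 with the largest estradiol ratios had other roles. BAG1, a cochaperone of HSP70 that also binds BCL2, was at 50.8 and 53.9 CPM in starved vehicle and at 114 and 119 CPM with estradiol (log2 ratio 1.14). MAN1C1, a Golgi mannosidase, was at 35.1 and 34.0 CPM and at 97.8 and 91.2 CPM (log2 ratio 1.44). GET4, which helps insert tail-anchored membrane proteins, had a log2 ratio of 1.13, as had the glutathione transferase gene GSTM5. NXNL2, a thioredoxin-like gene, had 1.08. RNF139-DT, a divergent transcript, and the unnamed genes ENSG00000234859 and ENSG00000261606 had log2 ratios of 1.14, 1.38 and 1.17.

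The most abundant members had moderate ratios. MYOF, myoferlin, a membrane repair protein, was at 816 and 817 CPM in starved vehicle and at 1531 and 1505 CPM with estradiol (log2 ratio 0.89). SUN1, a protein of the inner nuclear membrane that links it to the cytoskeleton, was at 215 and 213 CPM and at 429 and 394 CPM (log2 ratio 0.94). UGCG, glucosylceramide synthase, was at 183 and 201 CPM and at 378 and 395 CPM (log2 ratio 1.01). Other abundant members were ENSG00000283765 (log2 ratio 0.99), MREG, which acts in melanosome transport (0.96), ABAT, GABA transaminase (0.91), ZSWIM6 (0.88) and TTC39B (0.87). These CPM are not per length, so they do not rank the genes by transcription rate.

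Starvation itself left 9 members higher than complete medium by a log2 ratio over 0.3. The widest gap was at LINC01768, a long non-coding RNA gene at chr1:109828054-109905893, with 3.94 and 3.21 CPM in complete vehicle, 29.3 and 20.3 CPM in starved vehicle and 48.0 and 41.6 CPM with estradiol (log2 starvation ratio 2.63). All 8 complete-medium libraries of LINC01768 lay between 2.87 and 4.19 CPM. GSTM5, at chr1:109711751-109718268, was at 51.2 and 52.4 CPM in complete vehicle, 132 and 122 CPM in starved vehicle and 286 and 273 CPM with estradiol (log2 starvation ratio 1.29). The 2 genes with the largest separate starvation ratios are thus on chromosome 1, 110 kb apart, a pair singled out after their values were seen. The counts of ENSG00000241720 (log2 starvation ratio 1.31) were between 0.962 and 0.992 times those of GSTM5 in every library. The SD of their log2 ratio over libraries was 0.014, beside 0.104 for separate counts of that size, so the 2 cannot be told apart by these counts and are not separate evidence.

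The other 6 were lower in abundance or had smaller gaps. ENSG00000238117 was at 19.4 and 18.7 CPM in complete vehicle, 37.7 and 35.9 CPM in starved vehicle and 73.5 and 82.3 CPM with estradiol. TMPRSS2, a membrane serine protease known as an androgen target in prostate, was at 20.6 and 20.3 CPM, 28.5 and 30.9 CPM, and 58.0 and 58.4 CPM. In both genes the starved vehicle libraries lay between the complete vehicle and the estradiol libraries, with no overlap. The rule used these libraries, so this order is a description. PDE8B, a cAMP phosphodiesterase, DHRS3, a retinal reductase, and DCUN1D3, of the cullin neddylation pathway, had log2 starvation ratios of 0.56, 0.42 and 0.40, and HSPB8 had 0.72. CLU, an extracellular chaperone gene and next in order, had 0.19.

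**Figure D2:**
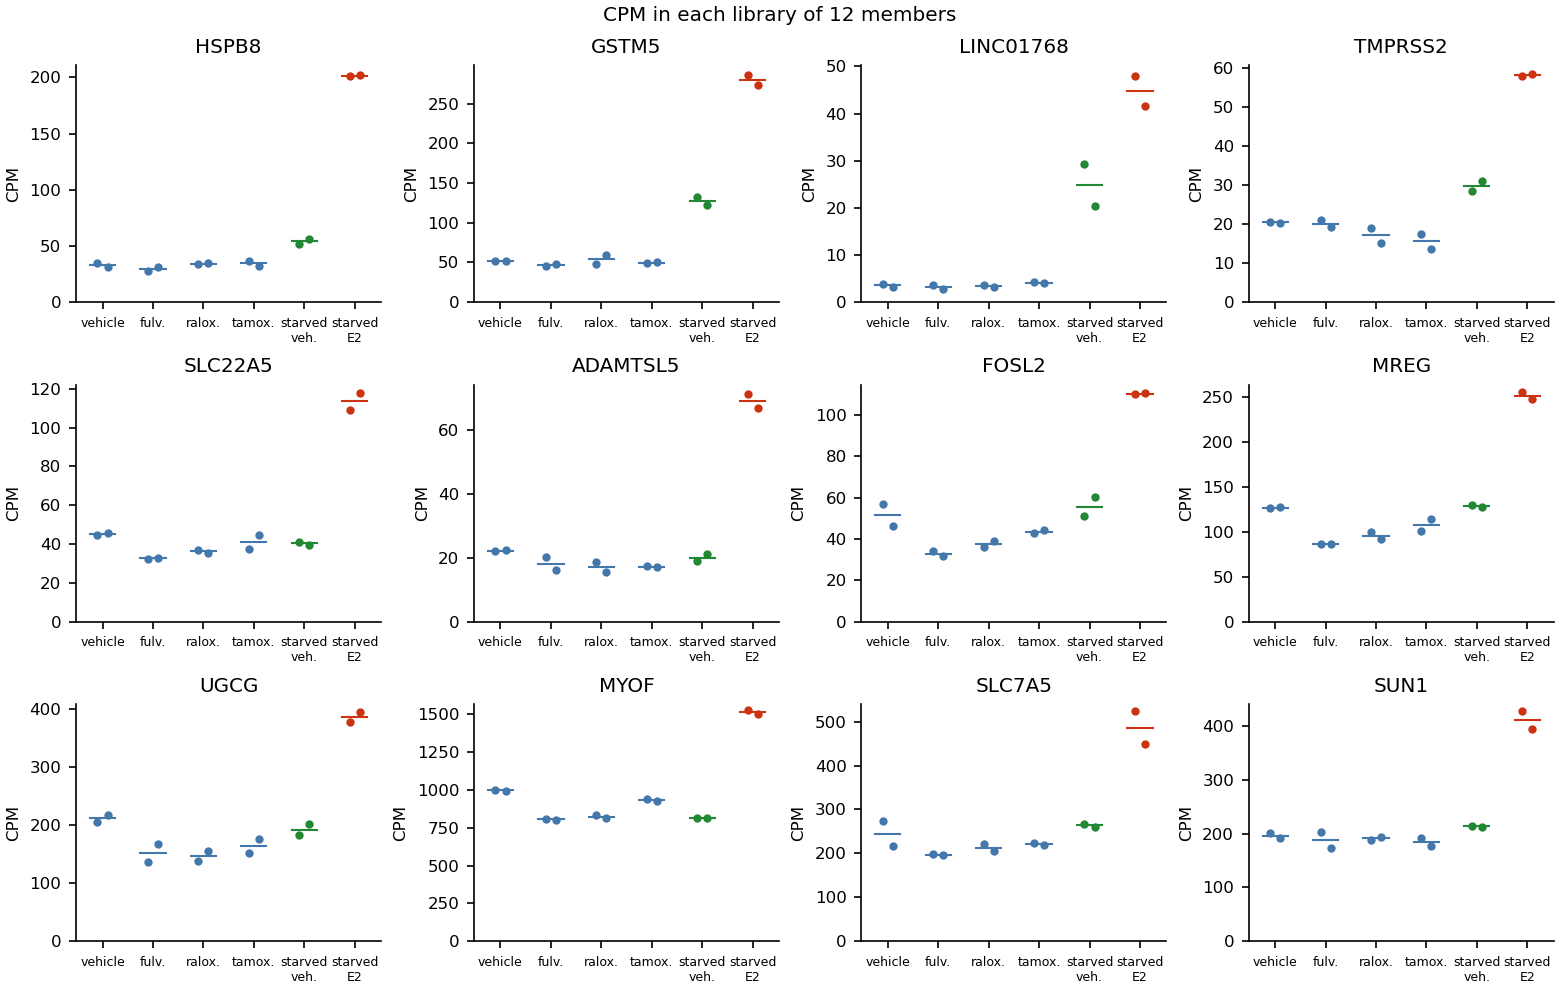
CPM in each of the 12 libraries for 12 members; points are single libraries, lines the mean of the 2 libraries of a group, blue the 4 complete-medium groups, green starved vehicle and red starved cells given estradiol (E2). In every panel both estradiol libraries are the highest, as in all 50 members. In LINC01768, GSTM5, HSPB8, TMPRSS2 and SUN1 the starved vehicle libraries also lie above all 8 complete-medium libraries.

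Whether the receptor antagonists move these genes in complete medium is a question the choice did not use, except that the complete vehicle libraries entered the starvation criterion, all 12 libraries entered the mean count, and all 3 drugs are set against the same 2 vehicle libraries. Each drug was tested over 23375 genes with edgeR's quasi-likelihood test and Benjamini-Hochberg adjustment, with a threshold of 0.05, and log2 fold changes below are from that fit with their SE.

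Fulvestrant lowered 16 of the 50 genes in 1 h and raised 0. Among all tested genes 1.05% were lower and 0.107% higher, and among genes with a mean count of at least 50, 1.60% were lower. The median log2 fold change was -0.24 over the members, -0.57 over the starvation-lowered genes, of which 130 of 195 were lower, and 0.01 over all genes tested. Members and starvation-lowered genes are divided by a ratio that shares the complete vehicle libraries with this fold change, as with those of the other drugs. No test was made between them. In 45 members the fold change was below 0, and in 30 both fulvestrant libraries lay below both vehicle libraries, as they did in 16.7% of genes with the mean count. At an unadjusted p under 0.05, 27 members were lower and 1, DCUN1D3, was higher, against 4.15% lower and 3.35% higher among all genes tested. DESeq2 called 11 members lower and 0 higher, of 172 lower and 14 higher among all genes.

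MYOF fell from 1003 and 992 CPM to 810 and 805 CPM, a log2 fold change of -0.33 ± 0.04 (edgeR adjusted p = 5.0e-05). MREG fell from 126 and 128 CPM to 86.6 and 86.7 CPM, by -0.57 ± 0.07 (edgeR adjusted p = 7.2e-05). NXNL2 fell from 85.3 and 79.9 CPM to 49.1 and 57.1 CPM, by -0.66 ± 0.09 (edgeR adjusted p = 0.00013). In these 3 genes the drug and vehicle libraries did not overlap, and the libraries of a group lay close together relative to the difference. BAG1 fell from 63.4 and 59.2 CPM to 42.1 and 43.0 CPM, by -0.55 ± 0.09 (edgeR adjusted p = 0.00085). FOSL2, which encodes a subunit of AP-1, fell from 57.1 and 46.4 CPM to 34.1 and 31.7 CPM, by -0.68 ± 0.11 (edgeR adjusted p = 0.0012), and its vehicle libraries were the more spread. UGCG fell from 206 and 218 CPM to 136 and 167 CPM, by -0.50 ± 0.09 (edgeR adjusted p = 0.0035).

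ENSG00000283765 fell by 0.34 on the log2 scale and ABAT by 0.42. The largest fall among those called was at CYP2T1P, a cytochrome P450 pseudogene, from 15.8 and 16.3 CPM to 7.50 and 7.34 CPM (log2 fold change -1.13). Also called lower were CBX3P4, ENSG00000238117, SLC22A5, SERPINI1, the neuroserpin gene, and ENSG00000287688, the last 2 of them named after their values were seen, with log2 fold changes from -0.80 to -0.46.

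Among the 41 members with a log2 starvation ratio between -0.3 and 0.3, 15 were lower with fulvestrant, with a median log2 fold change of -0.32 over the 41. Several of those 15 were themselves modestly lower in starved cells. Both starved vehicle libraries lay below both complete vehicle ones in MYOF, BAG1, UGCG, ABAT, SLC22A5, ENSG00000283765, SERPINI1, CBX3P4 and ENSG00000287688. In MREG, NXNL2, FOSL2 and CYP2T1P the starved and complete vehicle libraries overlapped. Among the 9 that were higher in starved cells, 1 (ENSG00000238117) was lower, with a median of -0.15, and no test was made between these groups, which are divided by a ratio that shares the vehicle libraries with the fold change. HSPB8, with the highest estradiol ratio, was at 27.7 and 31.2 CPM with fulvestrant, a log2 fold change of -0.19 with a 95% interval from -0.41 to 0.04. GSTM5 gave -0.16 (-0.37 to 0.04), TMPRSS2 -0.05 (-0.33 to 0.24) and SUN1 -0.08 (-0.22 to 0.07), so for SUN1 a fall beyond 0.22 on the log2 scale lies outside the interval. LINC01768 gave -0.18, and at its few counts the interval ran from -0.90 to 0.55. The count of 16 fell most when fulvestrant library 3 was left out, and it also fell without complete vehicle library 3 or 4. The number called lower among all genes tested fell in each of these fits too. MYOF, MREG, NXNL2 and BAG1 kept the call in all 11 alternative analyses, and each of the other 12 lost it in at least 1.

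Raloxifene lowered 8 members and raised 0, against 0.479% lower and 0.0898% higher among all genes tested. The median log2 fold change over the members was -0.21, beside -0.34 over the starvation-lowered genes, of which 67 were lower, and 0.01 over all genes. UGCG was at 137 and 155 CPM with raloxifene, a log2 fold change of -0.56 ± 0.09 (edgeR adjusted p = 0.0032). MYOF was at 833 and 817 CPM, a change of -0.29 ± 0.04 (edgeR adjusted p = 0.00091), and MREG at 99.3 and 91.5 CPM, a change of -0.41 ± 0.07 (edgeR adjusted p = 0.0063). In all 3 both raloxifene libraries lay below both vehicle libraries, as they did in 27 members and in 4030 of 23375 genes tested. Also lower were ENSG00000238117 (log2 fold change -0.65), FOSL2 (-0.50), NXNL2 (-0.41) and ENSG00000283765 (-0.29). At an unadjusted p under 0.05, 24 members were lower and 0 higher, against 4.67% and 5.11% of all genes tested. DESeq2 called 4 members lower and 0 higher, of 74 lower and 9 higher among all genes. The count of 8 fell most when complete vehicle library 3 was left out, and it also fell without complete vehicle library 4 or raloxifene library 3. The number called lower among all genes tested fell in each of these fits too. MYOF alone of the 8 kept its call in all 11 alternative analyses.

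With tamoxifen 0 members were called in either direction by edgeR's quasi-likelihood test and 0 by DESeq2, against 0.0471% lower and 0.00428% higher among all genes tested. At an unadjusted p under 0.05, 16 members were lower and 1, CFAP99, was higher, against 3.42% lower and 3.13% higher among all genes tested, so the 1 higher member is no more than the background share. The median log2 fold change was -0.10, with 40 of 50 below 0, beside -0.19 over the starvation-lowered genes, of which 8 were lower. UGCG had the smallest p, at 152 and 175 CPM with tamoxifen against 206 and 218 CPM in vehicle, a log2 fold change of -0.38 ± 0.09 (edgeR adjusted p = 0.24). CFAP99, a cilia-associated gene, was at 20.4 and 21.1 CPM against 14 and 15.5 CPM in vehicle, a log2 fold change of 0.50 ± 0.13 (edgeR adjusted p = 0.38). In both genes the libraries did not overlap between drug and vehicle, which was common at 2 libraries against 2. Both tamoxifen libraries lay below both vehicle libraries in 25 members and in 4041 of 23375 genes tested. They lay above both in 8 members and in 4094 genes tested.

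**Figure D3:**
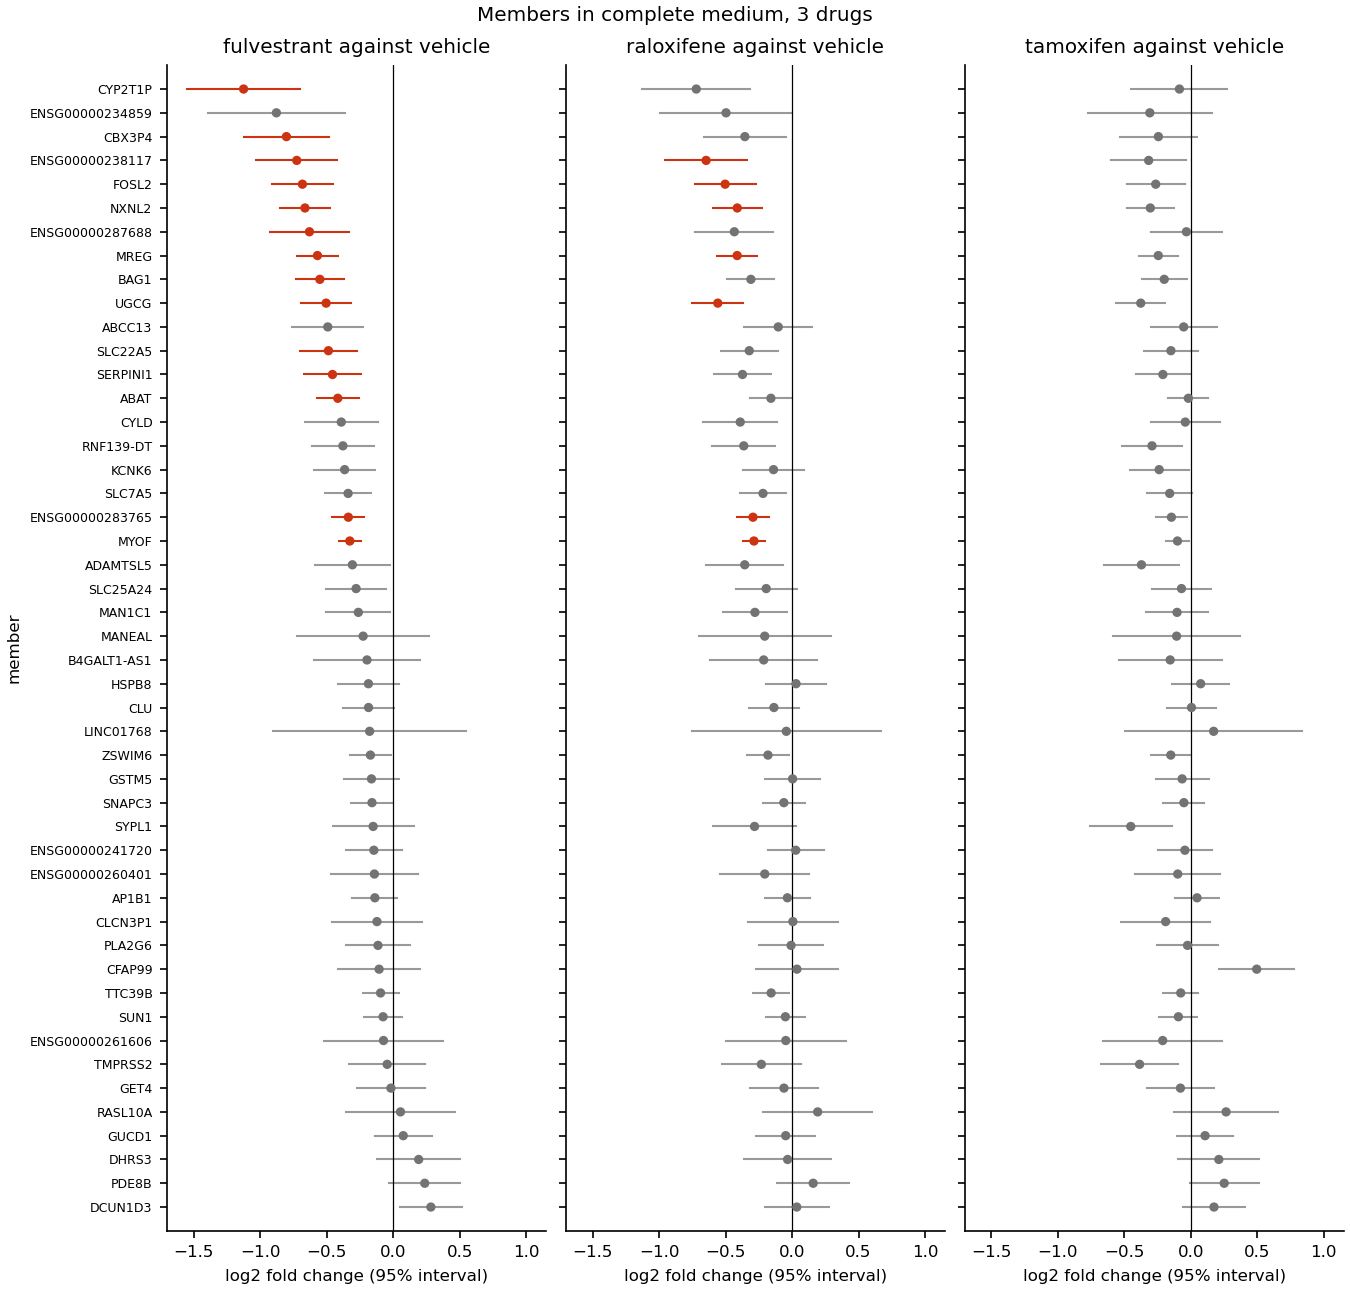
Log2 fold change of 48 of the 50 members (rows, ordered by the fulvestrant value) with fulvestrant, raloxifene or tamoxifen against the same 2 vehicle libraries; bars are 95% intervals of the edgeR fit and red marks an adjusted p under 0.05. Of those drawn, 14 genes are red with fulvestrant, 7 with raloxifene and 0 with tamoxifen, and 43, 40 and 38 values lie below 0.

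All 3 drugs were given at the same dose and for the same time, and they were compared in 3 pairs, each adjusted over all 23375 genes. These libraries chose the members only through the mean count. Tamoxifen left 3 members higher than fulvestrant did, and 0 lower, against 0.453% higher and 0.00856% lower among all genes tested (73 of the 195 starvation-lowered genes were higher). MYOF was at 938 and 928 CPM with tamoxifen and 810 and 805 CPM with fulvestrant, a log2 difference of 0.23 ± 0.04 (edgeR adjusted p = 0.0070). ABAT was at 101 and 97.6 CPM and at 74.7 and 78.1 CPM, a log2 difference of 0.40 ± 0.07 (edgeR adjusted p = 0.011). CYP2T1P was at 14.6 and 15.7 CPM and at 7.50 and 7.34 CPM, a log2 difference of 1.04 ± 0.20 (edgeR adjusted p = 0.014). In these 3 genes the libraries of the drugs did not overlap.

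Across the 50 members the median log2 difference of tamoxifen over fulvestrant was 0.18, with 42 above 0, beside 0.39 for the starvation-lowered genes and a value near 0 for all genes. Both tamoxifen libraries lay above both fulvestrant libraries in 29 members, and in 12.9% of genes with the mean count. At an unadjusted p under 0.05, 23 members were higher and 1 (TMPRSS2) was lower, against 3.10% and 1.98% of all genes tested. DESeq2 called 3 members higher and 0 lower, of 82 higher and 1 lower among all genes. For UGCG the log2 difference was 0.13, with a 95% interval from -0.06 to 0.32, and for SUN1 -0.02 (-0.16 to 0.13). The count of 3 fell when fulvestrant library 3 or tamoxifen library 4 was left out, as did the number called higher among all genes tested.

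Raloxifene and fulvestrant differed in 0 members by edgeR's quasi-likelihood test, where 0.103% of all genes were higher with raloxifene, and DESeq2 called 0. The median log2 difference was 0.08, and 5 members were higher and 1 lower at an unadjusted p under 0.05, against 3.18% and 1.72% of all genes tested, so the 1 lower member is at the background share. The 95% interval for MYOF, from -0.05 to 0.13, and that for UGCG, from -0.25 to 0.14, leave out differences larger than these. Tamoxifen and raloxifene also differed in 0 members by both tools, where 0.00428% of all genes were higher with tamoxifen. The median log2 difference was 0.11, with 10 members higher and 0 lower at an unadjusted p under 0.05, against 2.38% and 2.16% of all genes tested. The 95% interval for MYOF, not adjusted for the number of genes, ran from 0.10 to 0.27. MYOF was not called (edgeR adjusted p = 0.45).

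**Figure D4:**
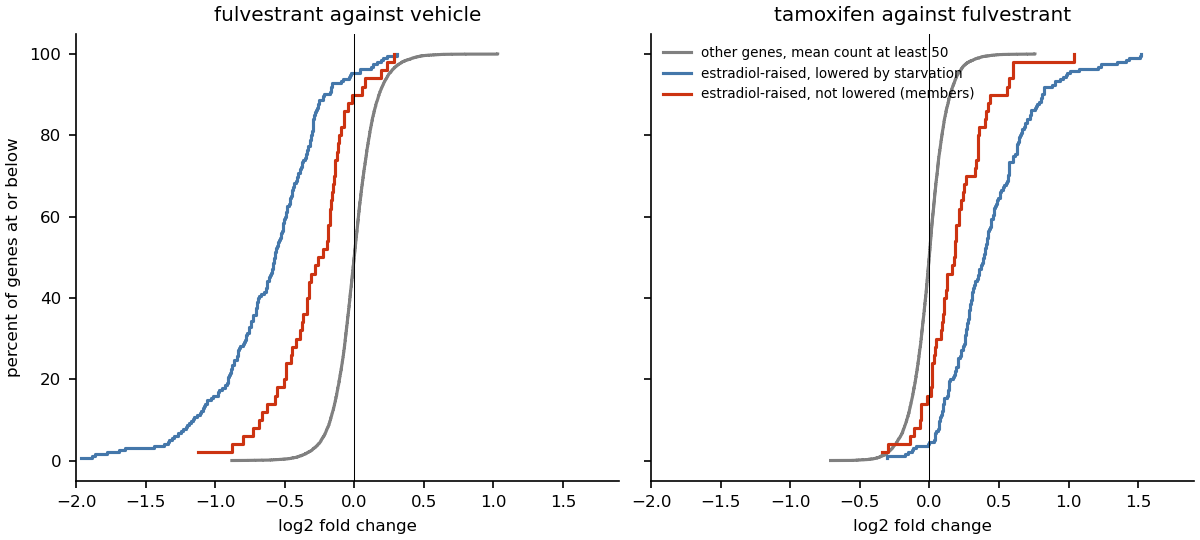
Cumulative percent of genes (y axis) at or below a log2 fold change (x axis), for fulvestrant against vehicle (left) and tamoxifen against fulvestrant (right). The members (red) lie between the starvation-lowered genes (blue) and the other genes with a mean count of at least 50 (grey), with medians of -0.24 and -0.57 on the left and 0.18 and 0.39 on the right. Red and blue are divided by a ratio that shares the complete vehicle libraries with the left panel, and no test was made between them.

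Some members lie beside other genes that estradiol raised. Within 100 kb, 8 of the 43 placed members (18.6%) had another gene past the estradiol threshold, beside 55 of 163 starvation-lowered genes (33.7%) and 3.52% of 12909 genes with the mean count. The 8 include both genes of the pairs AP1B1 and RASL10A, SUN1 and GET4, and B4GALT1-AS1 and BAG1. The other shares count pairs in the same way. AP1B1, a clathrin adaptor subunit (log2 estradiol ratio 1.03), and RASL10A, a Ras-like GTPase (0.89), are 7.82 kb apart on the same strand of chromosome 22. SUN1 and GET4 are 1.62 kb apart on chromosome 7. BAG1, on chromosome 9, is 3.90 kb from SPINK4 (log2 estradiol ratio 2.76), a starvation-lowered gene on the opposite strand. PLA2G6, a calcium-independent phospholipase, is 20.2 kb from MAFF (1.70), and CBX3P4 is 7.39 kb from FKBP4 (1.64).

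B4GALT1-AS1 overlaps B4GALT1 (log2 estradiol ratio 2.26, log2 starvation ratio -0.69) on the opposite strand and is 72.5 kb from BAG1. It was at 14.6 and 13.8 CPM in starved vehicle and 33.3 and 30.3 CPM with estradiol. Since the labels do not state whether counting used strand, it is not known how many of its reads come from B4GALT1. The log2 estradiol ratio of B4GALT1-AS1 was 1.13 and its log2 starvation ratio 0.05, both unlike those of B4GALT1. Of the placed members 7 are on chromosome 9, and outside the 100 kb window TTC39B lies 116 kb from both CLCN3P1 and SNAPC3 there, a group singled out after its values were seen.

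The members are 0.341% of the genes with the mean count, so a short list of pathway genes would seldom hold one. Of 40 tested genes on a list of classical estrogen-induced genes, 29 were starvation-lowered and 2, MREG and HSPB8, were members; 26 of the 40 were lower with fulvestrant and 0 higher, with a median log2 fold change of -0.73. Of 33 immediate-early genes, FOSL2 was the member, and 2 were lower with fulvestrant. Among all genes tested 1.05% were lower with fulvestrant. The lists were drawn up with earlier results of these data known, so these counts are a description. The list of 28 ion channel and transporter genes above held 4 members. DHRS3 was the member among 35 retinoid and nuclear receptor genes and HSPB8 among 18 heat shock and chaperone genes. Lists of 15 MAPK feedback genes, 40 growth factor, cytokine and receptor genes, 34 ribosome biogenesis genes and 28 cell cycle genes held 0 members, which is what that share gives for lists of this size.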

How the data were processed

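Counts were taken as the authors deposited them, unnormalized integers for each Ensembl gene in 12 libraries. The tools named, per the submitters' processing notes, are Bowtie2 2.4.4, SAMtools 1.9 and cutadapt 1.8.1, with build hg38, while counting tool, annotation and strand use are not given in the labels. IDs sharing a symbol were reduced to the one with the highest total (59410 genes; the 1195 left out held 0.0741% of counts; 142 IDs without a name entry held 0.281% and kept their ID). In R 4.3.3 with edgeR 4.0.16, filterByExpr left 23375 genes, TMM set the scaling, and a quasi-likelihood model of 6 groups was fitted to all 12 libraries, with Benjamini-Hochberg adjustment over all tested genes; DESeq2 1.42.0 was an alternative. The 2 libraries of each group differed by more than sampling noise (chi-square per gene 1.20 to 2.34). Members and lists were chosen with earlier results of these data known.

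Genes named are the leading called members of each comparison by adjusted p (up to 10) and the 15 with the largest estradiol ratio. Also named are the 10 most abundant, the 10 with the largest starvation ratio and list members. Those nearest each threshold and those with a member within 100 kb are named too. Outside these rules, CFAP99 was named for its unadjusted p with tamoxifen, PLA2G6 for its neighbour MAFF and GUCD1 for its AP-1 match. Others are said to be chosen afterwards. RefSeq positions and promoter windows are of GRCh38.p14, matched by symbol. The closing section gives the effect of other scalings, filters, tests and left-out libraries. Values of 2 members are not reported here, though counts and medians over the members include them.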

Additional observations from a re-analysis of the deposited data

How the results depend on the processing

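The 27 calls of single members (16 with fulvestrant, 8 with raloxifene, 3 between tamoxifen and fulvestrant) were recomputed under 11 alternatives each, and 0 reversed direction; DESeq2 kept 18, DESeq2's size factors in edgeR 27, no scaling 25, no filter 27, a mean count of at least 50 27, and a fit of only the 4 libraries compared 22. The number of members went from 50 to 20 with an estradiol threshold of 1.0 and to 20 with a starvation threshold of 0, and ranged from 47 to 58 when 1 library was left out. Leaving out a library leaves a lone sample that is assumed to vary like the other groups, and the fit then has fewer samples: members lower with fulvestrant ranged from 5 to 12 (16 with all libraries), members lower with raloxifene from 1 to 6 (8 with all), and members higher in tamoxifen against fulvestrant from 0 to 2 (3 with all).

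Members lower with raloxifene were 4 by DESeq2 and 5 in the fit of 4 libraries, where 74 and 86 of all genes were lower (112 in the main fit). Members higher in tamoxifen against fulvestrant were 8 without a filter, 6 among genes with a mean count of at least 50 and 1 in the fit of 4 libraries. In these fits 162, 116 and 65 of all genes were higher (106 in the main fit). Without a filter 1 member was lower with tamoxifen, where 69 of all genes were lower (11 in the main fit), and 1 was higher in tamoxifen against raloxifene. The cause of these shifts was not tested. A replicate block, with the library number 3 or 4 as a block, gave 20 members lower with fulvestrant, 14 lower with raloxifene, 3 lower with tamoxifen, 11 higher in tamoxifen against fulvestrant and 1 higher in tamoxifen against raloxifene. Over all genes it moved these counts from 245 to 371, 112 to 306, 11 to 114, 106 to 219 and 1 to 26. The labels do not say that the numbers pair the libraries; the correlation of same-numbered libraries' deviations was between 0.113 and 0.361 in complete medium and as low as 0.0477 over all groups. At 2 libraries a group, a count that misses the threshold does not show that members did not differ.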
